A study of Mus musculus with 12 samples.

Results

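Secretory cells fold their export proteins in the endoplasmic reticulum (ER), and genes that serve this work and its stress responses are described here in mouse mast cells grown with and without stem cell factor (SCF). The set held 39 genes out of 18194 with a probe set assigned to a single symbol. They were chosen by name, with earlier results of these data known. By role, 14 were ER chaperones and folding enzymes and 6 were components of ER-associated degradation. The others were 5 stress sensors with their transcription factors and 14 ATF4 targets. All 39 were on the array, through 98 probe sets.

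Bone marrow-derived mast cells were grown from the femoral marrow of C57BL/6 mice for 4 to 6 weeks with 30 ng/ml interleukin 3 (IL3, 6 samples) or in IL3 at the same dose with SCF, the ligand of the receptor tyrosine kinase KIT (100 ng/ml unless indicated otherwise, 6 samples). No genetic change is labelled in either group. Per the labels, every sample was grown with IL3. The comparison asked how long exposure to SCF alters transcripts of mast cells that IL3 sustains. Purity of the cultures was above 99% by toluidine blue and surface receptors, per the labels. Whether replicates were separate cultures or animals is not labelled, so the p-values refer to the spread among the samples at hand, part or all of which may be technical. Values are linear Affymetrix probe set signals, which can be compared between arrays for the same probe set but not between genes.

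When unfolded protein builds up in the ER, the kinase-endonuclease IRE1 (gene Ern1), the kinase PERK (Eif2ak3) and the membrane-bound factor ATF6 (Atf6) are activated. IRE1 splices the mRNA of XBP1, and XBP1 and cleaved ATF6 induce ER chaperones and the machinery that returns misfolded protein to the cytosol for degradation. PERK and other kinases phosphorylate eIF2alpha, which slows translation in general but favours that of ATF4, the factor that drives genes of amino acid synthesis, redox balance and translational recovery; the latter branch is shared with amino acid shortage and is known as the integrated stress response. Transcript arrays measure neither splicing of Xbp1 mRNA nor phosphorylation of eIF2alpha, nor the amount of ATF4 protein.

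The ER stress response element, CCAAT followed after 9 bases by CCACG, is the classic promoter motif of the first arm. It is shown because, within the set, only genes of that arm held it, though not all of them. Chosen for this, it describes the set and does not test a difference between the arms. It was searched on both strands in RefSeq promoters of assembly GRCm38.p6 (250 bases before to 50 after each annotated start), which were at hand for 34 of the 39 genes. Of 12 ER chaperones and folding enzymes with a promoter, 7 held it, as did Derl3 and Syvn1 of ER-associated degradation, and 0 of 13 ATF4 targets did. Over all 32851 promoters the share was 0.119%, and 0.137% of the 27025 genes they belong to held it. The copies below are read along the motif, with its fixed letters in capitals and 5 bases on each side.
Hspa5: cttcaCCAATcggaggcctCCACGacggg
Hsp90b1, nearer copy: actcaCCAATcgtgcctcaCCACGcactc
Hsp90b1, farther copy: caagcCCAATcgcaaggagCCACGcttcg
Pdia6: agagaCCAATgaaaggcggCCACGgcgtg
Creld2: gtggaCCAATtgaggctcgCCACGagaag
Dnajc3: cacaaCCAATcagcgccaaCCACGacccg
Calr: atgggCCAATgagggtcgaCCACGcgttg
Canx: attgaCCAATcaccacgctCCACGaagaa
Syvn1: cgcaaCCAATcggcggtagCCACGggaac
The Hspa5 copy lay at chr2:34772020-34772048 on the plus strand, with the motif 65 to 47 bases before the annotated start. Those of Pdia6 (chr12:17266486-17266514, plus strand) and Creld2 (chr15:88819515-88819543, minus strand) lay 98 to 80 and 126 to 108 bases before it. The whole 250 bases before the Hspa5 start, chr2:34771840-34772089 on the plus strand, give that motif its context.
Hspa5 upstream: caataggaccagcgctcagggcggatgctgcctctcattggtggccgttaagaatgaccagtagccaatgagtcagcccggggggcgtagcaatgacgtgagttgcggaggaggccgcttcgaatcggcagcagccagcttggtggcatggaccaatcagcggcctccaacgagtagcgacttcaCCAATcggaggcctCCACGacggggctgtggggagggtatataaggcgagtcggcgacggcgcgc

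The motif typical of the other arm, the CCAAT/enhancer-binding protein and ATF response element TGATGNAA, was found on either strand in 3.97% of promoters. By gene the share was 4.51%. This motif stood in 5 of 13 ATF4 targets (Asns, Chac1, Nupr1, Vldlr and, after the start, Trib3), in Herpud1, and in 0 of the 12 ER chaperones. The TGACGTGG core of the unfolded protein response element was in 0.676% of promoters (0.714% of genes) and in 0 members. The copies before the start in ATF4 targets, again with 5 bases on each side, were as follows.
Asns: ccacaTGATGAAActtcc
Chac1: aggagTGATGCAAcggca
Nupr1: ctgtcTGATGCAAtctgg
Vldlr: agcgcTGATGCAActatt
The Asns copy (chr6:7693220-7693237, minus strand) lay 23 to 16 bases before the start, and the Chac1 copy (chr2:119351044-119351061, minus strand) 193 to 186 bases before it. Both searches only match letters in these windows and do not show binding, and a missing match says nothing about a factor.

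The arms differed in how many genes passed with SCF. Of the 14 ER chaperones and folding enzymes, 10 fell, 0 rose and 4 did not pass the test; all 14 fitted changes were below 0 and their median was -0.33 on the log2 scale. Of the 14 ATF4 targets 2 fell, 0 rose and 12 did not pass, with a median of -0.09. That median was -0.01 without IL3 replicate 1, when 2 targets rose, -0.03 without IL3 replicate 5, -0.05 without SCF replicate 4 and -0.14 without IL3 replicates 3 and 6. At an unadjusted p below 0.05, 13 chaperones were lower and 0 higher, and 2 ATF4 targets were lower and 2 higher. The test was limma over the 11429 genes bright enough to test, with Benjamini-Hochberg adjusted p below 0.05, and it called 35.5% of them (18.9% risen, 16.6% fallen), with a median change of 0.02. Across the whole set 38 genes were tested, of which 2 rose, 15 fell and 21 did not pass. The 2 risen are Edem1 and Ern1; the probe sets of Ern1 disagree in direction, and 0 members rose with the mean or the most variable probe set of each gene. The share changed, 44.7%, was above the 35.5% of all genes, whereas the share was 71.4% for the ER chaperones and 14.3% for the ATF4 targets. In 12 members the arrays of both groups did not overlap, and this held for 19.1% of all genes tested. In bulk RNA, fewer cells of a type and less RNA per cell cannot be told apart.

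**Figure D1:**
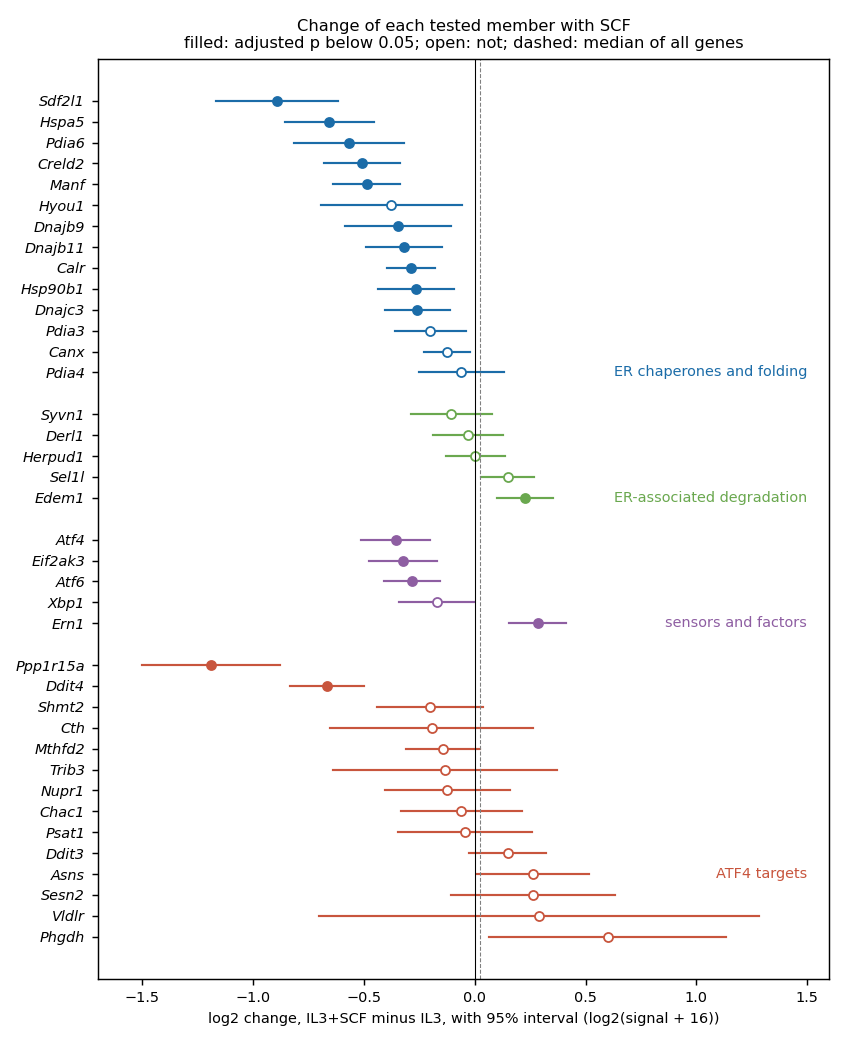
Fitted log2 change of each of the 38 tested genes (IL3+SCF minus IL3, points) with its 95% interval (lines, not adjusted for the number of genes), grouped by role; filled points passed the adjusted threshold and the dashed line is the median of all genes, 0.02. All 14 ER chaperones lie left of 0, whereas the ATF4 targets spread from -1.19 to 0.60.

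Among ER chaperones, each read from its brightest probe set, the largest fall was that of Sdf2l1, which encodes an ER-resident partner of the BiP chaperone system. Its signal had a lowest, median and highest value of 2883, 3024 and 4114 in IL3, and of 1355, 1695 and 2388 with SCF. Every SCF array lay below every IL3 array, and replicate 1 was the highest of its group on both sides. The log2 change was -0.89 ± 0.13 (SE, n = 6 per group, adjusted p = 0.0001725).

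Hspa5 encodes BiP, the abundant Hsp70 of the ER lumen and the protein that holds the stress sensors inactive. In IL3 its signal ran from 19277 through a median of 21994.5 to 22763, and with SCF from 10841 through 13689 to 16579. The groups were well apart, with means of 21355 ± 1414 and 13640 ± 1971 (SD, n = 6), a ratio of 0.639. Hspa5 fell by 0.66 on the log2 scale (SE 0.09, adjusted p = 0.0001497), and a separate bright probe set of the gene fell by 0.81.

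Pdia6, a protein disulfide isomerase that forms and reshuffles disulfide bonds, ranged from 2919 to 4025 in IL3 (median 3438) and from 1952 to 3046 with SCF (median 2313). Only SCF replicate 1 reached into the IL3 range, and the change was -0.57 ± 0.11 (SE, adjusted p = 0.001993). A second, dimmer probe set of Pdia6 fell by 1.08 with no overlap (256 ± 61.8 against 113 ± 32.5, SD, n = 6) and was dim on 2 SCF arrays. Creld2, an ER-resident protein induced by ER stress, ranged from 2648 to 3472 in IL3 (median 2922) and from 1808 to 2336 with SCF (median 2094), with no overlap. Its change was -0.51 ± 0.08 (SE, adjusted p = 0.0003125).

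The other 6 chaperone genes that fell did so by 0.26 to 0.49 on their brightest probe sets. Manf, an ER stress-inducible factor of the ER lumen, fell by 0.49 with no overlap of the groups (7136 ± 483 against 5093 ± 481, SD, n = 6). Of the BiP co-chaperones of the DnaJ family, Dnajb9 fell by 0.35, Dnajb11 by 0.32 and Dnajc3 by 0.26. Dimmer probe sets of Dnajc3 fell by 0.36, 0.39 and 0.62, and its faintest, at -0.17, did not pass. The lectin chaperone gene Calr fell by 0.29, from 27928 ± 1353 to 22869 ± 1000, and Hsp90b1, encoding the Hsp90 of the ER (GRP94), fell by 0.27. Of these, Calr and Dnajb11 also had no overlap between groups. Dnajb9 was the least firm: it did not pass without IL3 replicate 3, IL3 replicate 4, SCF replicate 2 or SCF replicate 4 (adjusted p from 0.05296 to 0.05933), and with arrays centred on their medians Dnajb9, Dnajb11 and Dnajc3 did not pass (adjusted p = 0.07134, 0.05022 and 0.05217).

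The 4 that did not pass had fitted values from -0.38 to -0.06. Hyou1, a nucleotide exchange factor for BiP, had a change of -0.38 with a 95% interval from -0.69 to -0.06 (adjusted p = 0.06415), while its other probe sets fell by 0.61 and 0.54. Pdia3 stood at -0.20 (adjusted p = 0.05369) and Canx, the membrane-bound lectin chaperone, at -0.12 (adjusted p = 0.06079). Pdia4 had the smallest change, -0.06 with an interval from -0.25 to 0.13, and ranged from 3251 to 4492 in IL3 and 3279 to 4154 with SCF, so its interval holds changes of either sign. Without SCF replicate 1, Hyou1, Pdia3 and Canx passed (adjusted p = 0.02017, 0.01866 and 0.03676), and without IL3 replicate 3 Pdia3 and Canx did (adjusted p = 0.04263 and 0.04638).

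Of the 9 genes in the set with an ER stress response element 8 were tested, of which 6 fell, and the other two were Canx and Syvn1. Sdf2l1, with the largest chaperone fall, had no copy in the window, and Manf and Hyou1 had no promoter in the table. Of 28 genes outside the set whose promoter held the motif only 3 (Alg12, Ero1b and Pan2) were among the genes tested here, and 0 of them passed (limma; 1 was lower at an unadjusted p below 0.05). Of 255 tested genes outside the set with TGATGNAA, 47 rose and 51 fell, a share of 38.4% changed that lies near the 35.5% of all genes; of the 6 such members 0 passed (1 was higher at an unadjusted p below 0.05).

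**Figure D2:**
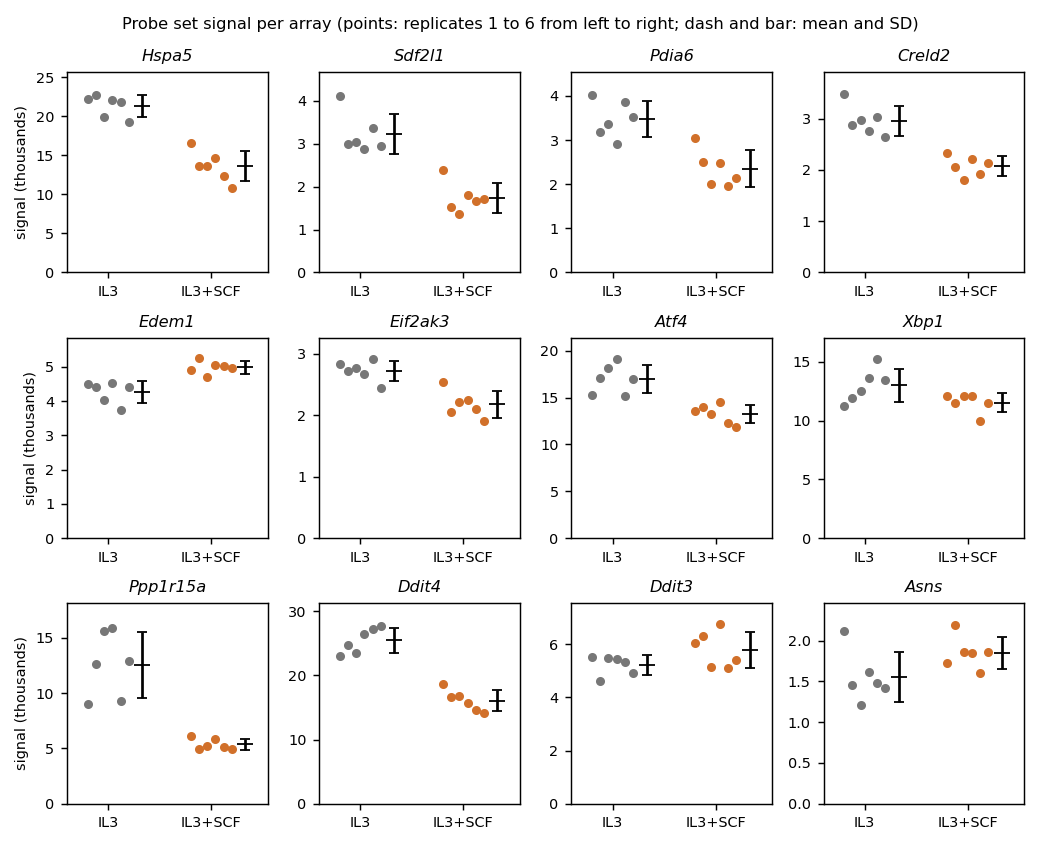
Probe set signal (linear scale) on each array for 12 genes, with grey points for IL3 and orange points for IL3+SCF (replicates 1 to 6 from left to right) and the mean with SD (n = 6) beside each group; every axis starts at 0. Hspa5, Sdf2l1, Creld2, Atf4, Ppp1r15a and Ddit4 are lower with SCF on all arrays, Edem1 is higher on all, and Xbp1, Ddit3 and Asns overlap.

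Of the 5 genes of ER-associated degradation that were tested 1 rose and 0 fell (limma; 2 higher and 0 lower at an unadjusted p below 0.05), with a median change of 0.00. Edem1, a lectin-like protein that helps pick misfolded glycoproteins for disposal, had a lowest, median and highest signal of 3732, 4414 and 4526 in IL3 and of 4703, 4994.5 and 5251 with SCF. All SCF arrays were above all IL3 arrays, and the change was 0.23 ± 0.06 (SE, adjusted p = 0.008024); its other probe set stood at 0.06 and did not pass. With arrays centred on their medians Edem1 did not pass either (0.20, adjusted p = 0.1351). Sel1l, the scaffold of the HRD1 ubiquitin ligase complex, had a change of 0.15 (adjusted p = 0.05227), and 0.18 without IL3 replicate 2, when it passed (adjusted p = 0.01948). The ligase gene Syvn1 stood at -0.11, the Derlin gene Derl1 at -0.03 and Herpud1, a membrane component of that complex, at 0.00 with an interval from -0.13 to 0.14. Derl3 was dim on all 12 arrays (means 42.0 ± 25.5 in IL3 and 30.4 ± 16.8 with SCF, SD, n = 6) and was not tested; dim means at or below the 40th percentile of that array, which lay between 61.1 and 102.

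Of the 5 sensors and factors 3 fell, 1 did not pass, and Ern1 is counted as risen from its brightest probe set although its probe sets disagree. Atf4 ranged from 15178 to 19110 in IL3 (median 17094) and from 11884 to 14510 with SCF (median 13418). The groups did not overlap, and Atf4 fell by 0.36 (SE 0.07, adjusted p = 0.002066). Its second probe set stood at -0.18 and did not pass. Eif2ak3, encoding PERK, ranged from 2442 to 2914 in IL3 (median 2740) and from 1901 to 2544 with SCF (median 2156), and SCF replicate 1 alone lay above the lowest IL3 array. It fell by 0.32 (SE 0.07, adjusted p = 0.003289). Atf6 fell by 0.28 with no overlap, while its other kept probe sets, at -0.17 and -0.13, overlapped and did not pass (adjusted p = 0.1398 and 0.2329 over probe sets).

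Xbp1 transcript had a lowest, median and highest signal of 11241, 13031 and 15263 in IL3 and of 9964, 11773 and 12142 with SCF. The groups overlapped, and the change of -0.17 ± 0.08 (SE) did not pass (adjusted p = 0.1095), although 1 of its 4 probe sets fell by 0.20. Without IL3 replicate 1 the change was -0.21 and passed (adjusted p = 0.04811). Ern1 cannot be given a direction. Its brightest probe set rose from 3008 ± 216 to 3664 ± 207 (SD, n = 6), a log2 change of 0.28 without overlap, whereas another fell by 0.54 (adjusted p = 0.03794 over probe sets) and the faintest kept one stood at -0.04 and did not pass. The sources used here do not say which transcript end each probe set reads.

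**Figure D3:**
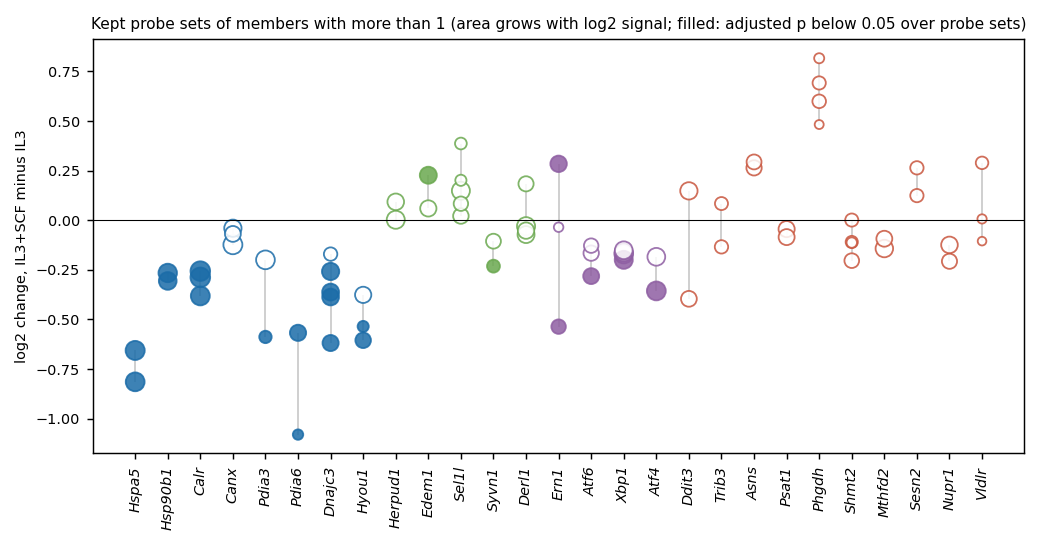
Log2 change (IL3+SCF minus IL3) of every kept single-symbol probe set of the 27 genes that have more than 1, joined by a grey line per gene; circle area grows with the log2 signal and filled circles passed the threshold adjusted over all kept probe sets. Probe sets of Ern1 lie on opposite sides of 0, at 0.28 and -0.54, whereas those of Hspa5, Calr and Hsp90b1 are all filled and below 0.

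Taking every probe set as a row, 87 of the 98 were kept, of which 3 rose and 29 fell, whereas 30.9% of all 27167 kept probe sets passed. The 3 that rose belonged to Edem1, Ern1 and Phgdh, the last through a probe set that is also assigned to Gm8096. All 3 kept probe sets of Calr fell, as did 4 of 5 for Dnajc3 and both of Hspa5, Hsp90b1 and Pdia6. A probe set of Pdia3 far dimmer than the main one fell by 0.59, and a second of Syvn1 fell by 0.23.

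The 2 ATF4 targets that fell did so by more than most chaperones. Ppp1r15a encodes GADD34, which directs a phosphatase to eIF2alpha and so restores translation. Its signal had a lowest, median and highest value of 8975, 12792 and 15934 in IL3 and of 4969, 5178 and 6130 with SCF. Every SCF array was below every IL3 array, and the IL3 arrays were themselves widely spread (12573 ± 2989 against 5379 ± 488, SD, n = 6). The change of -1.19 ± 0.14 (SE, adjusted p = 4.64e-05) was the only one of at least 2-fold when each gene is read from its brightest probe set; a dimmer probe set of Pdia6 also passed that size.

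Ddit4 encodes REDD1, an inhibitor of the growth kinase mTORC1 that also responds to hypoxia and glucocorticoids. It ranged from 23028 to 27731 in IL3 (median 25642) and from 14072 to 18688 with SCF (median 16167), with no overlap. It fell by 0.67 (SE 0.08, adjusted p = 3.477e-05).

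The other 12 ATF4 targets did not pass, and several were imprecise. Ddit3, encoding the stress factor CHOP, ranged from 4603 to 5505 in IL3 (median 5385) and from 5098 to 6751 with SCF (median 5723), a change of 0.15 with an interval from -0.03 to 0.32 (adjusted p = 0.1755); its other probe set stood at -0.40 and did not pass either. Asns, asparagine synthetase, ranged from 1216 to 2116 in IL3 (median 1467) and from 1602 to 2186 with SCF (median 1849). IL3 replicate 1 was above 5 of the 6 SCF arrays, and the change of 0.26 ± 0.12 (SE) had an adjusted p of 0.09789. Phgdh, the first enzyme of serine synthesis, had the largest upward value, 0.60 with an interval from 0.07 to 1.13 (adjusted p = 0.07604). Without IL3 replicate 1 both passed, Asns at 0.36 (adjusted p = 0.008299) and Phgdh at 0.78 (adjusted p = 0.01008).

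None of the remaining amino acid and folate enzymes passed with all arrays. Psat1, which follows Phgdh in serine synthesis, stood at -0.04, the mitochondrial folate enzymes Shmt2 and Mthfd2 at -0.20 and -0.14, and Cth, which makes cysteine from cystathionine, at -0.19. Without IL3 replicates 3 and 6 Shmt2 stood at -0.34 and passed (adjusted p = 0.01906), which made 3 ATF4 targets fallen. Of the stress effectors, the pseudokinase gene Trib3 stood at -0.13 (interval from -0.64 to 0.37), the glutathione-cleaving enzyme gene Chac1 at -0.06, the chromatin-associated stress gene Nupr1 at -0.12 and the sestrin gene Sesn2 at 0.26. Vldlr, a lipoprotein receptor gene, was at 0.29 with an interval from -0.70 to 1.28 and was dim on 1 IL3 array. The standard errors of the ATF4 targets had a median of 0.134 and reached 0.457, against a median of 0.079 for the ER chaperones, so a change of the size seen in chaperones would more easily have been missed among ATF4 targets.

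**Figure D4:**
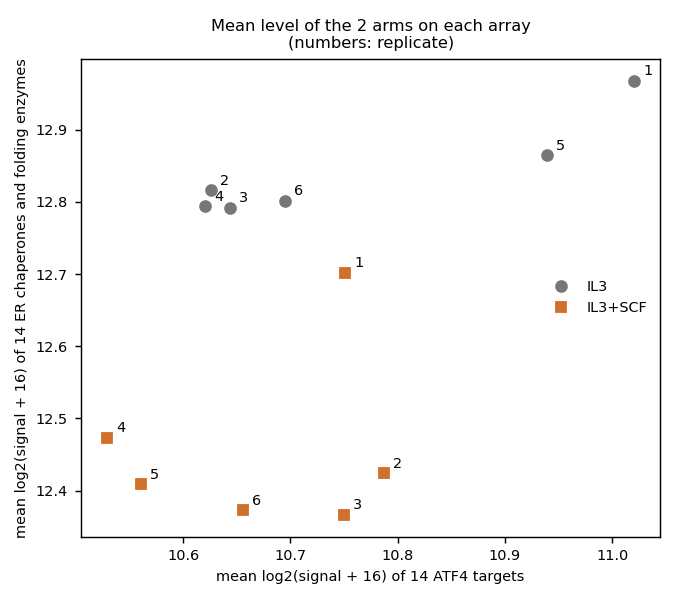
Mean log2(signal + 16) over the 14 ATF4 targets (horizontal axis) and over the 14 ER chaperones and folding enzymes (vertical axis) on each array, with grey circles for IL3, orange squares for IL3+SCF and the replicate number beside each point; neither axis starts at 0. The vertical axis parts the groups, 12.79 to 12.97 against 12.37 to 12.70, whereas on the horizontal axis they overlap, 10.62 to 11.02 against 10.53 to 10.79.

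Averaged per array, the chaperone class had a mean log2 signal of 12.84 ± 0.07 in IL3 and 12.46 ± 0.13 with SCF (SD, n = 6). The ATF4 target class had 10.76 ± 0.18 and 10.67 ± 0.11. Groups were apart for the first and overlapped for the second. Arrays also differed within groups: SCF replicate 1 was the highest of its group for 13 of the 14 chaperones, and IL3 replicate 1 was the highest of its group for 8 of the 14 chaperones and 8 of the 14 ATF4 targets. Without SCF replicate 1, 13 of the 14 chaperones fell. Genes of the same arm also differed among IL3 arrays, in examples picked after their values were seen. Ppp1r15a was lowest on IL3 replicates 1 and 5 (8975 and 9289), as were Atf4 (15323 and 15178) and Dnajb9 (5976 and 6347), while Trib3 was highest on these arrays (1211 and 878, against 445 to 570 on the other IL3 arrays), and so was Phgdh (1018 and 714, against 372 to 505).

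The background was also taken over genes of like brightness. Among 4594 other genes within the brightness range of the chaperones, 19.1% rose and 16% fell, and their median change was 0.01. Among 8980 other genes within the range of the ATF4 targets, 20.5% rose and 16.8% fell, with a median of 0.02. Median standard errors were 0.067 for the first background against 0.079 for the chaperones. They were 0.080 for the second against 0.134 for the ATF4 targets.

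Other genes of the same pathways were listed by role. Of 29 tested genes for ER entry, glycosylation and oxidative folding 9 fell and 0 rose (13 lower and 0 higher at an unadjusted p below 0.05), with a median of -0.15; the largest falls were Pdia5, a disulfide isomerase, at -0.54, and Fkbp2, an ER prolyl isomerase, at -0.43. Of 17 further genes of ER-associated degradation and membrane-bound factors 4 fell and 0 rose (the same counts at an unadjusted p below 0.05), with a median of -0.03. Edem3, a mannose-trimming enzyme related to Edem1, fell by 0.90, from 10610 ± 1310 to 5635 ± 352 (SD, n = 6), and Os9, a lectin of the same route, fell by 0.34. Edem1 and Edem3 had opposite calls, though Edem1 did not pass with median centring or with either other choice of probe set.

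On the eIF2 side, 2 of 10 genes rose and 0 fell (again with equal counts at an unadjusted p below 0.05), namely the heme-regulated kinase gene Eif2ak1 at 0.37 and the amino acid-sensing kinase gene Eif2ak4 (GCN2) at 0.19. Of 15 further ATF4 pathway factors and amino acid enzymes 1 rose and 5 fell. Cebpg, a dimer partner of ATF4, rose by 0.41, while Cebpb, a basic leucine zipper factor of myeloid cells, fell by 1.81, from 2066 ± 660 to 556 ± 75.8, and Atf3 fell by 0.71 and was dim on 4 SCF arrays. Of 19 cytosolic aminoacyl-tRNA synthetases, many of them known ATF4 targets, Sars rose by 0.24 and 3 fell, with Farsb at -0.52 and Hars at -0.19. Fitted changes were below 0 for 17 of the 19, with a median of -0.17, and at an unadjusted p below 0.05 8 were lower and 1 higher. Among 11 tested heat shock genes, chaperones of the cytosol and mitochondria, 7 fell, with Hspa1b at -0.82 and Dnajb1 at -0.69, and Bag3, an Hsp70 co-chaperone, rose by 0.32. The median of that list was -0.27. Of all genes tested, 35.5% passed in either direction. The share was above this for the heat shock genes (72.7%) and the further ATF4 pathway genes (40%). It was below this for ER entry, glycosylation and oxidative folding (31%) and for the further degradation genes (23.5%). The synthetases (21.1%) and the eIF2 side (20%) were also below it.

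Markers of the cells in these cultures were set beside the falls. None of 9 mast cell markers passed (limma; 1, Hdc, was higher at an unadjusted p below 0.05), and their summed signal was 255310 to 296593 in IL3 and 261551 to 296096 with SCF. Proliferation genes fell in 8 of 9 with a median of -1.60, and their sum was 22221 to 26536 in IL3 and 11616 to 15451 with SCF. SCF replicate 1 was the highest of its group here, as for the chaperones and the heat shock genes (mean log2 signal 12.71). SCF replicates 3 and 6, nearly tied as the lowest of their group for the chaperones (12.366 and 12.373), stood at 9.38 and 9.01 for proliferation. SCF replicate 4 was the lowest there (8.90). Plasma cells are rich in ER chaperones, and of 8 B and plasma cell markers 6 were dim and untested. The 2 tested went in opposite directions. Ighm fell by 2.55, while Jchain stood at 0.50 and did not pass, though it was higher at an unadjusted p below 0.05 (limma). The sum was 331 to 846 in IL3 and 221 to 558 with SCF. Of 6 monocyte and macrophage markers 5 were tested, of which 2 fell (Cx3cr1 at -3.90 and Lyz2 at -1.59), 1 rose (Cd68 at 1.28) and Csf1r was dim; the sum was 8088 to 11914 and 2967 to 3285. Neutrophil markers summed to 235 to 6538 in IL3, with replicates 3 and 6 highest, and to 176 to 303 with SCF, and without those replicates 9 of the 14 chaperones fell. Of the 8 neutrophil markers 7 were dim and untested, and 1 did not pass. Basophil markers summed to 7054 to 12960 and 5811 to 6527, and 1 of the 2 fell. Eosinophil markers summed to 186 to 467 and 132 to 367. Of these 3 markers 2 were dim and untested, and 1 did not pass. The part of proliferation, or of these other cells, in the changes of the set was not tested.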

How the data were processed

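The authors deposited linear probe set intensities of 12 single-colour Affymetrix arrays; targets were amplified from 50 ng of RNA per the labels' protocols, and the submitters' processing notes name GCOS 1.4. Background correction is not given in the sources used here. All arrays had an equal mean after trimming 2% from either end, so intensities were used as deposited (array medians 151 to 203). Precision is limited by the number of arrays.

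Of 45101 probe sets, 34958 had 1 symbol, 932 several and 9211 none in the platform annotation given. Probe sets above the array's 40th percentile on 6 or more arrays were kept, and the brightest kept one stood for its gene. log2(signal + 16), which understates changes of dim genes, was fitted with limma 3.58.1 in R 4.3.3 (lmFit, eBayes, two-sided, no covariates) and Benjamini-Hochberg adjustment, tested on simulated data. Probe sets were also fitted as rows of their own. Array correlations within groups were 0.9618 to 0.9905.

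Values per array are given for the largest changes past the threshold in each role (4, or 2 for degradation and sensors) and for 6 genes that the rule names; the Ern1 and Phgdh values were added after they were seen. From other lists come at most 2 risen and 2 fallen genes. The members, lists and alternatives were chosen with earlier results of these data known. Motifs were searched and figures drawn in Python 3.11.15 with matplotlib 3.10.9. Alternatives covered scaling, pseudocount, filter, probe set choice, variance model, replicate block and arrays left out.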

Additional observations from a re-analysis of the deposited data

Results flagged for a closer look

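In 3 of 76 groups of 6 arrays (38 genes by 2 cultures), 1 array stood far from the others, where chance gives about 1 in 20. Sel1l had 9001 on IL3+SCF replicate 4, the highest of its group, with the next array at 8832 in a group that was otherwise tight. Syvn1 had 1275 on IL3 replicate 6, the lowest of its group, with the next at 1401. Xbp1 had 9964 on IL3+SCF replicate 5, the lowest of its group, with the next at 11467.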

How the results depend on the processing

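Against 2 risen and 15 fallen members, 25 alternatives were run. Centring each array on its median left 1 risen and 12 fallen members (7 of them chaperones), and the mean or the most variable probe set of a gene left 0 risen and 18 fallen. Leaving out 1 array at a time gave 2 to 4 risen and 14 to 18 fallen members, the 4 without IL3 replicate 1. The median change of the ER chaperones was -0.50 with the most variable probe set, and it was -0.30 to -0.38 with 1 array left out; that of the ATF4 targets was -0.01 to -0.14 with 1 array left out and -0.03 with array weights. Ern1 reversed to -0.10 with the mean of its probe sets and to -0.54 with the most variable one. Deviations of same-numbered arrays from their group means had correlations from -0.189 to 0.356, and 1 IL3 array matched its own number best. The labels do not say what the numbers mean, so the main fit did not pair them. This check is too weak to show that no culture was shared. The replicate block gave 2 risen and 15 fallen members; Dnajb9 no longer passed under it (adjusted p = 0.08145) and Hyou1 did (adjusted p = 0.03406). Dnajb9 also did not pass in 7 other settings. Dnajb11 (adjusted p = 0.05022) and Dnajc3 (adjusted p = 0.05217) did not pass with median centring, and Atf4 did not with its most variable probe set (adjusted p = 0.3159). Edem1 did not pass under centring or under either other choice of probe set. Over all genes, centring left 1370 risen and 1415 fallen, against 2155 and 1900. Dim signals limit Derl3. Among ATF4 targets the widest intervals were those of Vldlr (SE 0.457, dim on 1 IL3 array), Phgdh (0.246), Trib3 (0.233) and Cth (0.211). Chac1, with the lowest mean signal of these targets (297 in IL3), had an SE of 0.126.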
